A study of Mus musculus with 16 samples.

Results

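The 86 genes described here carry the symbols of proteins of the cytosolic ribosome, 53 of the large subunit (symbols starting with Rpl) and 33 of the small subunit (Rps). GENCODE M21 annotates 83 of them as protein-coding and the other 3, Rpl37rt, Rps4l and Rpl6l, as processed pseudogenes. They were picked out by gene symbol alone, from the 21220 genes of the table of normalized counts; kinases of the Rps6k family, Rps19bp1 and the copies Rps3a2 and Rps3a3 were left out. The ribosome translates messenger RNA in every cell, and its proteins are needed in near-equal numbers. Most of their mRNAs are short and abundant, and begin at the cap with a run of pyrimidines, the 5′ terminal oligopyrimidine (TOP) tract, through which mTOR signalling controls their translation. Haploinsufficiency of several of the genes causes Diamond-Blackfan anaemia in humans.

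RNA-seq was made from organ of Corti cultures (the hearing epithelium of the inner ear) of newborn C57BL/6 mice, kept for 3.5 days from postnatal day 0. Rest encodes a transcriptional repressor that recruits histone deacetylases, and the mutants carried 1 copy of Rest without exon 4, written Rest(+/deltaExon4) in the labels. FK228 (romidepsin) is a histone deacetylase inhibitor; it was given at 2 nM from day 1 to 1.5 and again from day 3 to 3.5, and solvent controls had 0.1% DMSO at the same times. The groups were Rest heterozygotes with FK228, wild type with FK228, Rest heterozygotes with solvent and wild type with solvent, with 4 libraries each. RNA of 6 to 8 cultures was pooled for each library. Whether the pools within a group stem from different litters is not stated, and p-values therefore reflect pool-to-pool spread, which may be partly technical.

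Gene counts ran from 12361027 to 23611571 per library. Rest itself had 87.3, 81.1, 79.7 and 75.8 CPM (counts per 1000000, with library sizes scaled by TMM factors) in Rest heterozygotes with FK228, 74.6, 79.9, 70.9 and 69.9 CPM in wild type with FK228, 78.1, 86.9, 94.8 and 93.4 CPM in Rest heterozygotes with solvent and 85.5, 78.6, 75.2 and 86.4 CPM in wild type with solvent. These counts sum all exons, so they do not check the deletion. All 8 hair cell markers on the list and all 8 supporting cell markers were detected. Markers of macrophages were lower with FK228 in both genotypes, 8 of 8 by edgeR's quasi-likelihood test, and their summed level was 24.7 to 33.5 CPM in Rest heterozygotes with FK228 and 37.9 to 52.1 CPM in wild type with FK228, against 258 to 384 CPM and 363 to 448 CPM in the matching solvent groups. In heterozygotes and wild type, 7 and 7 of 8 mesenchyme markers, 6 and 5 of 8 supporting cell markers, 4 and 4 of 6 Schwann cell markers, 2 and 4 of 8 hair cell markers and 2 and 2 of 5 endothelial markers were also lower with FK228, against 24.6% and 25.2% of all genes. Called higher were 1 and 1 of the 8 hair cell markers and 0 and 1 of the 8 mesenchyme markers. Neuron markers differed, with 4 and 3 of 8 higher and 1 and 2 lower, against 23.7% and 23.6% of all genes higher. In pooled tissue, fewer cells of a type and less RNA per cell cannot be told apart, and the part of these shifts in the values below was not tested.

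The 6 stretches of promoter below show the letters around the annotated start of 6 of these genes. They come from RefSeq (GRCm38.p6), run from 45 bases before the annotated start to 20 bases into the transcript, and carry in capitals the longest run of C and T that touches the 10 bases on either side of the start. Rps10 and Rps18 were chosen as genes called higher with FK228 (Rps18 after its values were seen), Rpl38 and Rps27 as short genes with large differences between solvent groups, and Rps3a1 and Rpl10 as the genes called between genotypes with FK228.
Rps10, chr17:27635225-27635289, minus strand: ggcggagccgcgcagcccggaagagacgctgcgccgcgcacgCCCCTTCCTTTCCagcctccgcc
Rps18, chr17:33955646-33955710, minus strand: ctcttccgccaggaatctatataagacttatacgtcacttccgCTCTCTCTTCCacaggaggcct
Rpl38, chr11:114668535-114668599, plus strand: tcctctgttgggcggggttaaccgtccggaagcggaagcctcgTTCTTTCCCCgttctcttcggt
Rps27, chr3:90213629-90213693, minus strand: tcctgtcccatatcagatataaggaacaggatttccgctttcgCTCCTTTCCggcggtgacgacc
Rps3a1, chr3:86142649-86142713, minus strand: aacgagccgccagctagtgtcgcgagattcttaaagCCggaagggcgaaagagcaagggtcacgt
Rpl10, chrX:74270771-74270835, plus strand: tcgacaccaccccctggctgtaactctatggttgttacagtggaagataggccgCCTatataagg
The first 4 hold runs of 13, 11, 10 and 9 pyrimidines across the start, and in the last 2 the longest runs near the start have 2 and 3. These runs depend on the annotated start. Whether transcription begins there was not tested, so the last 2 are not shown to lack a TOP tract.

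RefSeq gave a promoter of 300 bases for 64 of the 86 genes. The longest pyrimidine run near the start had a median of 7 bases in these genes and 4 bases over the 27025 genes with a promoter in the table. A run of 8 or more was present in 45.3% of the ribosomal protein promoters and 15.8% of all promoters. CCGGAA, the core of sites bound by ETS factors such as GABPA, was present on either strand of 54.7% of the ribosomal protein promoters and 16.7% of all promoters. AAGATGG, a core of YY1 sites, was present on either strand of 15.6% and 7.28%, and TATAAA of 10.9% and 15.7%. CTTTCC on the transcribed strand, which can lie inside a pyrimidine run, was present in 40.6% and 16%. These are matches of letters within a window and do not show that a factor binds there.

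Of the 86 genes, 83 had enough counts to test. Among the tested genes the mean level over the 16 libraries ran from 1.99 CPM for Rps27rt to 1408 CPM for Rpl3, with a median of 199 CPM. The highest were Rpl3, next to the peptidyl transferase centre, at 1408 CPM, Rplp0, the base of the stalk that recruits elongation factors, at 943 CPM, Rps19, the most often mutated gene in Diamond-Blackfan anaemia, at 847 CPM, Rpl4 at 816 CPM and Rpl9 at 699.8 CPM. Per kilobase of transcript, the order was led by Rpl41, the shortest, with 25 codons, at 1237 CPM per kb, followed by Rps19 at 1094 CPM per kb and Rps25 at 1047 CPM per kb. The lowest tested were Rps27rt at 1.99 CPM, Rpl23a at 10.1 CPM, Rpl6l at 11 CPM, Rpl13a at 12.7 CPM and Rpl37rt at 31.0 CPM.

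Low levels of some genes coincided with shared sequence, and so did high levels of others. Rpl24, a core protein of the large subunit, averaged 0.484 CPM and was not tested; in GENCODE M21, 47% of its exon bases overlap another gene and 19.9% of its 100-base windows occur in no other gene. For Rpl23a the shares were 62.3% and 20%, and for Rpl13a 35.4% and 44.8%. Among the 5 highest genes, the windows were unique to 20.6% in Rpl3, at 1408 CPM, and to 13% in Rpl9, at 699.8 CPM. Fewer than 50% of the windows were unique in 38 of the 86 genes, among them Rps27 with 1.6%, Rpl10 with 8.4% and Rpl5 with 8.9%. The counts left out multiply mapped reads, so levels of such genes can be too low, and reads shared with pseudogenes are not in them. Rpl3l, the copy of Rpl3 typical of striated muscle, and Rpl39l, the testis-type copy of Rpl39, were near absent, with 0.416 and 0.189 CPM, and were not tested.

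Together the 86 genes took 2.42% to 2.61% of gene counts in Rest heterozygotes with FK228, between 2.15% and 2.52% in wild-type FK228 libraries, between 2.08% and 2.23% in heterozygote solvent libraries and between 1.93% and 2.11% in wild-type solvent libraries. The means were 2.53 ± 0.0805%, 2.30 ± 0.162%, 2.13 ± 0.0693% and 2.03 ± 0.0936% in the same order (SD, n = 4 each). Every FK228 library lay above every solvent library of its own genotype. Large and small subunit genes kept a near-constant proportion, with 1.52 ± 0.0278, 1.47 ± 0.0104, 1.51 ± 0.0130 and 1.48 ± 0.0172 large subunit counts per small subunit count in the 4 groups in that order.

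**Figure D1:**
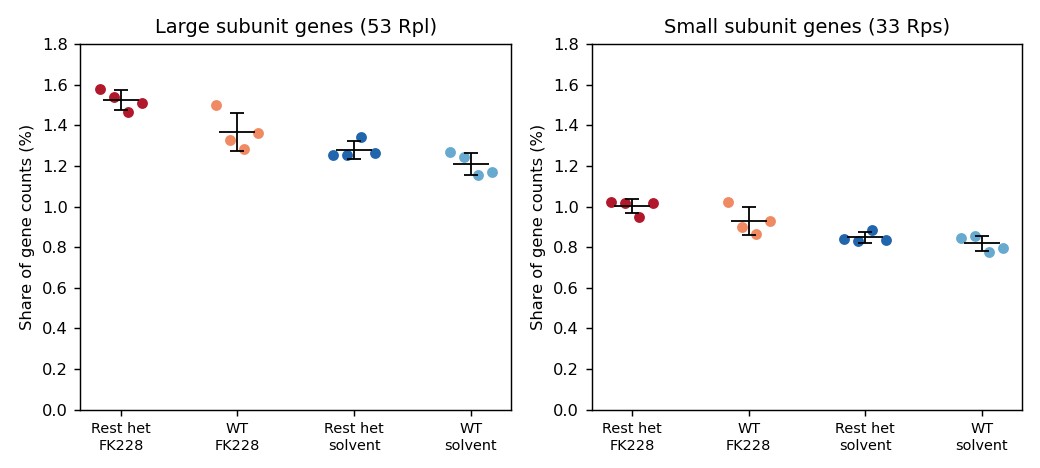
Share of gene counts (%) in large subunit genes (left) and small subunit genes (right), 1 point per library, with the mean and SD of each group. Rest heterozygotes with FK228 have the highest mean in both panels, at 1.52% and 1.00%, and wild type with solvent the lowest, at 1.21% and 0.818%.

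All changes below are relative to the bulk of gene counts, in which the median log2 fold change of all tested genes lay between -0.0099 and 0.0036. ERCC spike-in reads made up 0.312% to 0.393% of gene counts in Rest heterozygotes with FK228 and 0.156% to 0.237% in the other libraries. A higher share can reflect less RNA in a pool or more spike-in added to it, and which of these applied was not tested. Scaled to these spike-ins, the middle value over the tested genes was -0.72 (log2) with FK228 in Rest heterozygotes, -0.16 with FK228 in wild type, -0.18 in heterozygotes against wild type with solvent and -0.74 in heterozygotes against wild type with FK228. The ribosomal protein genes moved with that shift, to medians of -0.58, -0.0028, -0.0736 and -0.58 in the same comparisons, so a direction given below is a direction within the pool of mRNA.

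Relative to gene counts, ribosomal protein genes called with FK228 were mostly higher, by small amounts, in both genotypes; spike-in scaling turned this round in heterozygotes and left 1 higher and 7 lower in wild type. In Rest heterozygotes, 31 of 83 were called higher with FK228 and 5 lower by edgeR's quasi-likelihood test at an adjusted p under 0.05, and the median log2 fold change was 0.13; scaled to spike-ins, 0 were higher and 79 lower, against 4.65% and 62.2% of all genes under that scaling. The background was 23.7% of all 17125 tested genes called higher and 24.6% called lower, against 37.3% and 6.02% of the ribosomal protein genes. In wild type, 32 were called higher and 4 lower, with a median of 0.15, against a background of 23.6% higher and 25.2% lower; scaled to spike-ins the background was 11.7% higher and 26.3% lower. The excess of higher calls in wild type rested on single libraries. Without wild-type FK228 replicate 1 it was 17 genes, 20.5% against 21.1% of all genes, and without wild-type solvent replicate 3 it was 16 genes, 19.05% against 21.1%. With a replicate block it was 15 genes, 18.1% against 18.9%. The 4 lower calls of wild type were 2 without FK228 replicate 2, 2 without FK228 replicate 4 and 1 without solvent replicate 2, and the 5 lower calls of heterozygotes were 3 without FK228 replicate 4 and 2 without FK228 replicate 5. Of all genes, 23.2% to 23.5% were lower in those wild-type fits and 22.1% to 22.8% in those heterozygote fits. In 22 genes the call was higher in both genotypes, in 2 genes it was lower in both, and in 0 genes it went opposite ways. Of all genes, 48.3% were called in either direction in heterozygotes and 48.7% in wild type. The share of all genes called in both genotypes is not given, so this overlap is not shown to be particular to ribosomal protein genes. By subunit, 19 of 50 large and 12 of 33 small subunit genes were higher in heterozygotes, and 19 of 50 and 13 of 33 in wild type. Lower calls were 1 of 50 large and 4 of 33 small subunit genes in heterozygotes, and 3 of 50 and 1 of 33 in wild type. At coding lengths up to 350 bases, 1 of 19 was higher and 3 lower in heterozygotes, and 8 and 1 in wild type. In that order, the counts were 19, 2, 17 and 1 of the 39 up to 600 bases. Above 600 bases they were 11, 0, 6 and 2 of 22. Of 38 other coding genes with transcripts of at most 550 bases and at least 50 CPM, 8 were higher and 10 lower in heterozygotes. In wild type, 20 of them were higher and 6 lower, and the part of length was not tested.

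**Figure D2:**
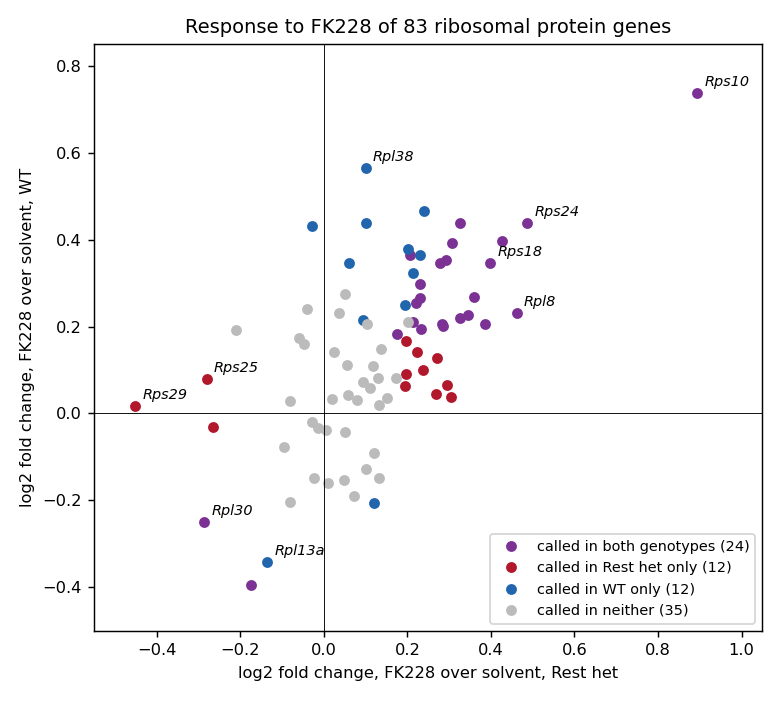
log2 fold change of FK228 over solvent for the 83 tested genes in Rest heterozygotes (x axis) and in wild type (y axis), 1 point per gene, coloured by the call at an adjusted p under 0.05 in edgeR. Rps10 stands apart at 0.89 and 0.74, and 24 genes were called in both genotypes, a count without a matching share of all genes. Scaled to spike-ins, all but 4 of the 83 genes were called lower in heterozygotes, as were 62.2% of all genes.

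Rps10, a small subunit protein near the mRNA entry and a Diamond-Blackfan anaemia gene (chr17:27630418-27636669, GRCm38), had the largest change. It stood at 251, 232, 219.9 and 249 CPM in Rest heterozygotes with FK228, against 115, 134, 136 and 127 CPM with solvent. In wild type it stood at 232, 189, 194 and 185 CPM with FK228, against 134, 128, 116 and 103 CPM with solvent. The groups did not overlap in either genotype. The log2 fold change was 0.89 ± 0.09 (SE) in heterozygotes, adjusted p = 1.1e-07, and 0.74 ± 0.09 in wild type, adjusted p = 1.3e-06, by edgeR; scaled to spike-ins it was 0.19 in heterozygotes and no longer called. In GENCODE M21, 28.7% of the exon bases of Rps10 overlap another gene.

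Rps24, another Diamond-Blackfan anaemia gene, had the next smallest adjusted p among the genes called higher in both genotypes. It had 279, 287, 252 and 263 CPM in Rest heterozygotes with FK228, against 195, 196, 199 and 181 CPM with solvent. Wild type gave 266, 232, 228 and 251 CPM with FK228, against 186, 198, 171 and 166 CPM with solvent. All FK228 values lay above all solvent values, with log2 fold changes of 0.49 ± 0.07 and 0.44 ± 0.07 (edgeR, adjusted p = 1.2e-05 and 4.1e-05); the heterozygote value was -0.23 when scaled to spike-ins.

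Rpl8, whose protein lies close to the peptidyl transferase centre, had 506, 483, 503 and 508 CPM in Rest heterozygotes with FK228, against 347, 353, 387 and 366 CPM with solvent, a log2 fold change of 0.46 ± 0.08 (edgeR, adjusted p = 8.5e-05). In wild type it had 451, 391, 370.0 and 409.8 CPM with FK228, against 402, 358, 313 and 308 CPM with solvent, and there the groups overlapped, with a change of 0.23 ± 0.08 (edgeR, adjusted p = 0.022). Rpl11, which with Rpl5 and 5S rRNA forms the particle that binds Mdm2, had 331, 320.0, 329 and 339 CPM with FK228, against 237, 243, 279.7 and 248 CPM with solvent in heterozygotes, a change of 0.39 ± 0.07 (edgeR, adjusted p = 1.8e-04). Rpl11 was also called higher in wild type, at 0.20 ± 0.07 (edgeR, adjusted p = 0.023). Its partner Rpl5 did not pass in either genotype, with log2 fold changes of -0.03 ± 0.09 and -0.02 ± 0.09.

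Other genes called higher in both genotypes moved by less than 0.45 on the log2 scale. Rps2, at the mRNA entry channel, changed by 0.43 ± 0.09 in heterozygotes and 0.40 ± 0.09 in wild type. Rps18, in the head of the small subunit, changed by 0.40 ± 0.08 and 0.35 ± 0.08, and Rps16, whose tail reaches the tRNA, by 0.29 ± 0.07 and 0.35 ± 0.07. Rpl17, which lines the exit tunnel, changed by 0.36 ± 0.07 and 0.27 ± 0.07, Rpl7a by 0.28 ± 0.07 and 0.35 ± 0.07 and Rps12 by 0.31 ± 0.08 and 0.39 ± 0.08. Each of these had an adjusted p between 2.5e-04 (Rpl17, heterozygotes) and 0.0037 (Rps12, heterozygotes) by edgeR. In heterozygotes, Rps2, Rps16, Rpl17, Rpl7a and Rps12 had negative log2 fold changes, -0.44 to -0.29, when scaled to spike-ins.

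Rpl30, which sits where the subunits join, was lower with FK228 in both genotypes. It had 101, 86.5, 82.8 and 82.9 CPM in Rest heterozygotes with FK228, against 99.1, 110.3, 119 and 103 CPM with solvent. In wild type it had 94.6, 98.0, 81.1 and 90.0 CPM with FK228, against 113, 116, 104 and 98.9 CPM with solvent. The heterozygote groups overlapped and the wild-type groups did not, with changes of -0.29 ± 0.09 and -0.25 ± 0.08 (edgeR, adjusted p = 0.009 and 0.02).

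Of the genes called lower in heterozygotes, 3 were not called in wild type, and one of these was uneven between libraries. Rps29, the gene of a small zinc-binding protein, had 122, 103, 64.5 and 76.2 CPM with FK228, against 118, 108, 137 and 136 CPM with solvent, a change of -0.45 ± 0.15 (edgeR, adjusted p = 0.016). The highest FK228 library lay inside the solvent range, and wild type showed 86.5, 86.7, 88.1 and 89.3 CPM with FK228, against 87.1, 89.4, 75.7 and 93.9 CPM with solvent. Rps25, known for its role in translation from viral internal entry sites, changed by -0.28 ± 0.08 (edgeR, adjusted p = 0.01), and Rps27l, a p53-induced copy of Rps27, by -0.26 ± 0.10 (edgeR, adjusted p = 0.044). In wild type, Rpl13a, known in human monocytes for repressing inflammatory mRNAs, was lower, at -0.34 ± 0.11 (edgeR, adjusted p = 0.018), and Rpl10, the late-joining protein that lets the subunits join, at -0.21 ± 0.08 (edgeR, adjusted p = 0.033).

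**Figure D3:**
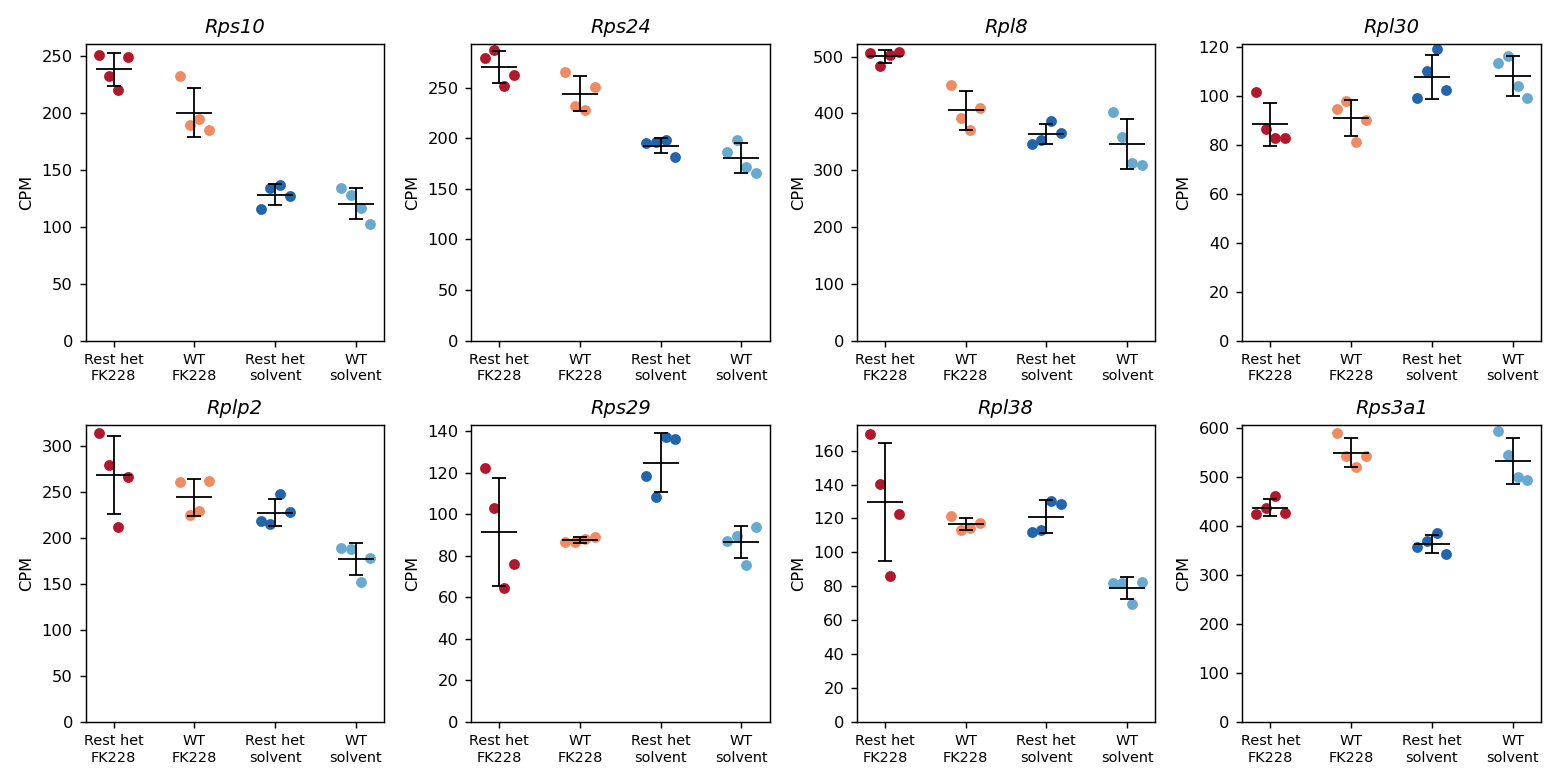
CPM of 8 ribosomal protein genes, 1 point per library, with the mean and SD of each group of 4; each y axis starts at 0. Rps10 is at 219.9 to 251 CPM in Rest heterozygotes with FK228 and at 115 to 136 CPM with solvent, and Rps3a1 is lower in heterozygotes than in wild type under both treatments; scaled to spike-ins, Rps24 and Rpl8 turn to lower with FK228 in heterozygotes.

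The P-stalk proteins, the landing site of elongation factors, were not uniform. Rplp2 had 260.1, 225, 229 and 262 CPM in wild type with FK228, against 189, 188, 152 and 178 CPM with solvent, with no overlap and a change of 0.47 ± 0.10 (edgeR, adjusted p = 6.7e-04). In heterozygotes Rplp2 did not pass, at 0.24 ± 0.10 (edgeR, adjusted p = 0.053). Rplp0 was called in heterozygotes, at 0.27 ± 0.07 (edgeR, adjusted p = 0.0049), or -0.44 when scaled to spike-ins. In wild type Rplp0 did not pass, at 0.13 ± 0.07 (edgeR, adjusted p = 0.16). Rplp1 was called in neither genotype, at -0.08 ± 0.09 and 0.03 ± 0.09. A different response between genotypes was not called for any of these genes. Rps6, the target of S6 kinase, did not pass, at 0.17 ± 0.07 and 0.08 ± 0.07 (edgeR, adjusted p = 0.057 and 0.37), and Rps27a, made as a fusion with ubiquitin, did not pass at 0.10 ± 0.08 and -0.13 ± 0.08.

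No ribosomal protein gene passed the test of a different response to FK228 between genotypes. The interaction gave 0 of 83 calls by edgeR and 0 by DESeq2, against a background of 0.0234% of all genes in edgeR, and 8 of 83, or 9.64%, had an unadjusted p under 0.05, against 5.76% of all genes. Among them, named after their values were seen, were Rpl10, Rps7 and Rps3a1 with positive interaction terms and Rpl38, Rpl41, Rps25 and Rps29 with negative ones. Scaled to spike-ins, 52 of 83 had a negative interaction call, against 24.9% of all genes. The median interaction term under that scaling was -0.54 in the ribosomal protein genes and -0.56 in all tested genes, so these genes moved no further than the rest.

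Several ribosomal proteins have paralogs, and most were expressed below their main copy. Rpl22l1 made up 22.7 ± 0.776% of the Rpl22 pair in Rest heterozygotes with FK228, 23.5 ± 0.928% in wild type with FK228, 28.2 ± 1.88% in heterozygotes with solvent and 27.4 ± 0.585% in wild type with solvent (SD, n = 4). Rpl22 was called higher with FK228 in both genotypes, at 0.33 ± 0.07 and 0.22 ± 0.07 (edgeR, adjusted p = 8.1e-04 and 0.015), and Rpl22l1 had -0.09 ± 0.09 and -0.08 ± 0.09, neither called. Rpl7l1, a nucleolar relative of Rpl7, was called higher in both, at 0.21 ± 0.07 and 0.21 ± 0.07 (edgeR, adjusted p = 0.014 and 0.015), and so was Rpl7, at 0.23 ± 0.07 and 0.19 ± 0.07 (edgeR, adjusted p = 0.014 and 0.037). Rpl36al made up 31.1 ± 0.756% to 35.9 ± 2.42% of its pair with Rpl36a over the groups, Rps4l 7.64 ± 1.07% to 8.67 ± 0.538% of its pair with Rps4x, and Rps27l 39.2 ± 3.88% to 47.9 ± 5.95% of its pair with Rps27. Rpl36a and Rpl36al share sequence, and 16.4% of the windows of Rpl36a are unique.

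In solvent, the genotypes differed mainly among the shortest ribosomal protein genes. The calls were 4 of 83 higher in Rest heterozygotes, Rpl38, Rpl39, Rpl36 and Rpl41, and 1 lower, Rps3a1, against a background of 1.06% of all genes higher and 0.806% lower (edgeR); scaled to spike-ins, 0 were higher and 1 was lower, against 0.479% and 1.1% of all genes. The 4 higher calls rested on single libraries: 0 were left without heterozygote solvent replicate 4, wild-type solvent replicate 2 or wild-type solvent replicate 3, 1 without heterozygote solvent replicate 5 or wild-type solvent replicate 4, and 2 without wild-type solvent replicate 1. Over all genes, the share called higher in those fits was 0.645% to 0.926%, against 1.06% with all libraries. Without heterozygote FK228 replicate 2 or 4, there were 10 and 12, or 11.9% and 14.3%, against 1.175% and 1.19% of all genes. The 2 groups did not overlap in 22 genes with heterozygotes higher and 1 with heterozygotes lower, against a background of 3.1% and 3.13% of all genes. In the same comparison 4 of 8 neuron markers and 2 of 8 hair cell markers were lower in heterozygotes (edgeR). The summed neuron markers ran from 929 to 1239 CPM in heterozygotes and from 1027 to 1231 CPM in wild type. The summed hair cell markers ran from 271 to 394 CPM in heterozygotes and from 375 to 485 CPM in wild type. The part of these markers in the result was not tested.

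Rpl38, which in mice is needed for normal skeletal patterning and hearing (chr11:114668524-114672331, GRCm38), had 112, 113, 130.2 and 129 CPM in Rest heterozygotes with solvent, against 82.2, 82.0, 69.4 and 82.3 CPM in wild type. The groups did not overlap, with a change of 0.61 ± 0.14 (edgeR, adjusted p = 0.025). With FK228 it had 170.1, 140.1, 86.0 and 123 CPM in heterozygotes, against 122, 113, 115 and 118 CPM in wild type, with the heterozygote values on both sides. Rpl39, in the wall of the exit tunnel, had 121, 120.5, 144 and 134 CPM in heterozygotes with solvent, against 94.2, 91.2, 80.0 and 99.7 CPM in wild type, a change of 0.51 ± 0.11 (edgeR, adjusted p = 0.016). Rpl41 had 745, 724, 854 and 799 CPM, against 586, 609, 524 and 593 CPM, a change of 0.43 ± 0.10 (edgeR, adjusted p = 0.032), and Rpl36 changed by 0.49 ± 0.12 (edgeR, adjusted p = 0.034).

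Over the 80 tested genes with an annotated coding sequence, the genotype difference in solvent followed coding length, a relation looked at after the values had been seen. Spearman's rho was -0.83 across these genes, which share the same 8 libraries and are not independent replicates. The 19 genes with a coding length of at most 350 bases had a median log2 fold change of 0.40 in heterozygotes over wild type, the 39 genes of more than 350 and up to 600 bases 0.10 and the 22 longer genes 0.02. With FK228 the same comparison gave a rho of -0.09 and a median of 0.14 in the short genes. Among the 45 genes with 50% or more unique windows the rho in solvent was -0.90.

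**Figure D4:**
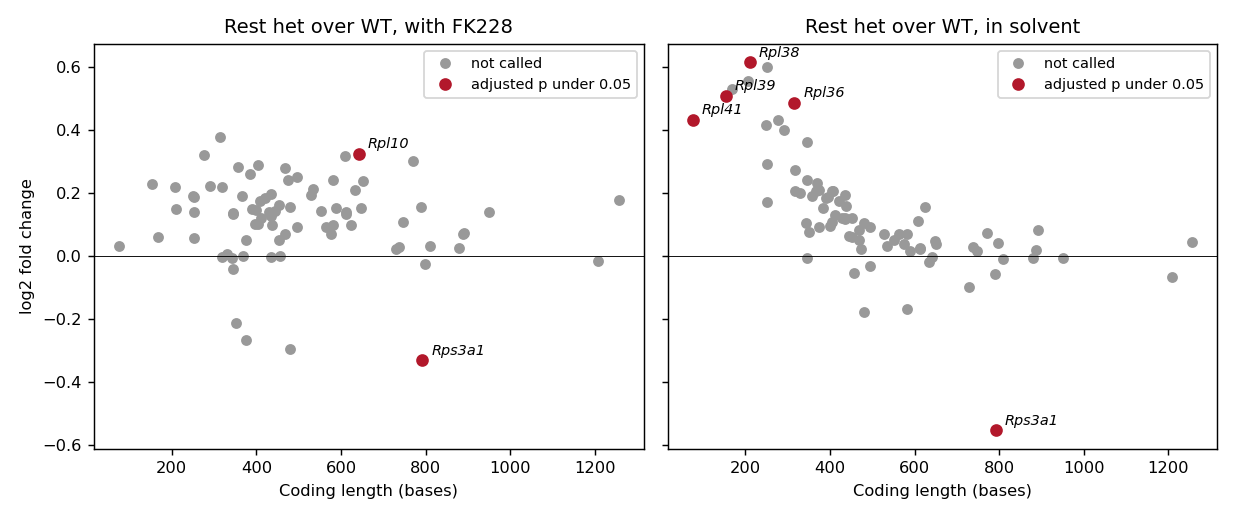
log2 fold change of Rest heterozygotes over wild type with FK228 (left) and in solvent (right) against coding length in bases, 1 point per gene (80 genes); red marks genes called by edgeR. In solvent the short genes lie highest, up to 0.61 for Rpl38, and with FK228 Spearman's rho is -0.09; scaled to spike-ins, the 4 higher calls in solvent are lost.

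The short genes moved together from library to library. As a median deviation from the 16-library mean, the 19 short genes stood at 0.47, 0.26, -0.24 and 0.11 (log2) in Rest heterozygotes with FK228, 0.12, -0.02, -0.08 and 0.02 in wild type with FK228, 0.02, 0.00, 0.21 and 0.15 in heterozygotes with solvent and -0.22, -0.23, -0.34 and -0.21 in wild type with solvent. Wild type with solvent was thus the low group, and heterozygotes with FK228 spread over more than the difference between the other groups. The 22 long genes stood between -0.16 and 0.15 in all libraries. Some other short genes varied likewise: 38 other coding genes with transcripts of at most 550 bases and a mean of at least 50 CPM stood at 0.24, 0.15, -0.22 and 0.01 in heterozygotes with FK228 and at -0.12, -0.14, -0.25 and -0.17 in wild type with solvent. In solvent, 35 of these 38 had a positive log2 fold change in heterozygotes over wild type, with a median of 0.21, against 0.01 in 3684 longer genes of that level. With the cut at a coding length of 350 bases, as in the ribosomal protein genes, 146 of 195 other genes of that level were positive, with a median of 0.07. Across 86 nuclear genes of oxidative phosphorylation, many of them short, the rho of coding length with the difference was -0.71, against -0.33 across 77 mitochondrial ribosomal protein genes and -0.07 across 3722 other coding genes with a mean of at least 50 CPM. The part of transcript length in the calls of short genes was not tested.

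**Figure D5:**
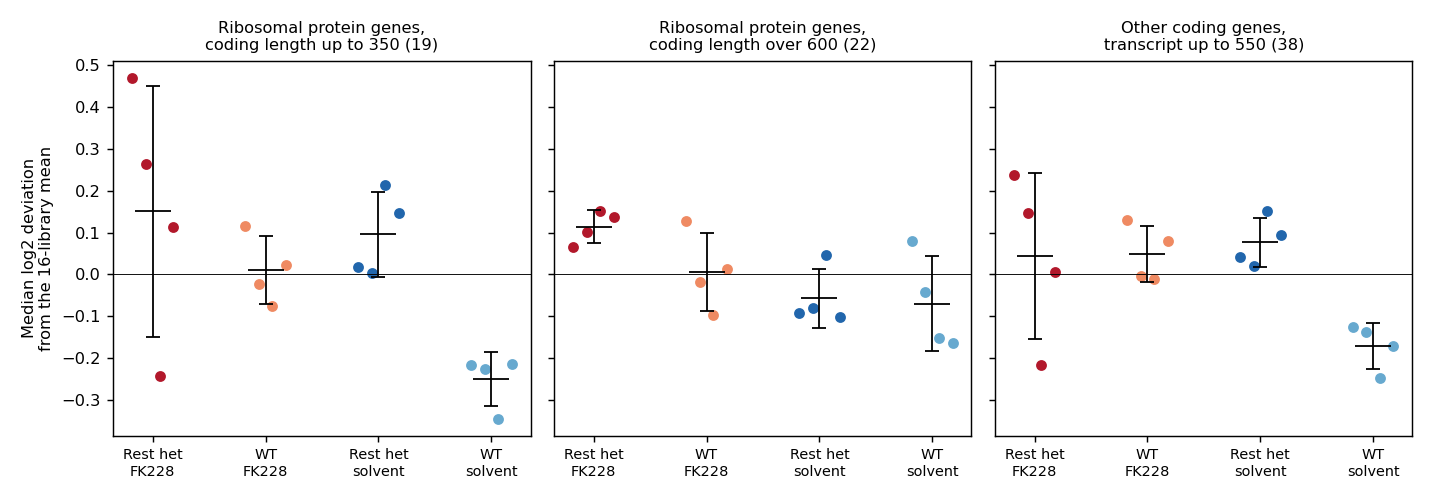
Median log2 deviation from the 16-library mean for short ribosomal protein genes (left), long ribosomal protein genes (middle) and other coding genes with short transcripts (right), 1 point per library with the mean and SD of each group. Both short classes are low in all 4 wild-type solvent libraries, at -0.34 to -0.21 and -0.25 to -0.12, and run from high to low among heterozygotes with FK228.

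Rps3a1, which encodes a protein of the small subunit platform (chr3:86137940-86142702, GRCm38), was lower in Rest heterozygotes under both treatments. With FK228 it had 424, 437, 461 and 426 CPM in heterozygotes, against 590.0, 543, 521 and 542 CPM in wild type, a log2 fold change of -0.33 ± 0.07 (edgeR, adjusted p = 0.011). With solvent it had 356, 368, 384 and 343 CPM, against 593, 544, 499 and 493 CPM, a change of -0.55 ± 0.07 (edgeR, adjusted p = 4.3e-05). The groups did not overlap under either treatment. Within heterozygotes it was higher with FK228 than with solvent, at 0.27 ± 0.07 (edgeR, adjusted p = 0.0026), or -0.45 when scaled to spike-ins. Rps3a3, a near-copy on chromosome 13, went the other way: it had 109.9, 112, 118 and 107 CPM in heterozygotes with FK228, against 1.08, 0.725, 0.906 and 1.19 CPM in wild type, and 93.7, 98.2, 105 and 98.6 CPM in heterozygotes with solvent, against 1.04, 1.27, 1.18 and 1.38 CPM in wild type. Rps3a2, on chromosome 14, averaged 18.3 ± 1.39 CPM in heterozygotes with FK228 and 5.9 ± 0.721 CPM in wild type with FK228, and 15.7 ± 0.82 CPM in heterozygotes with solvent and 6 ± 1.29 CPM in wild type with solvent (SD, n = 4 each).

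The sum of the 3 Rps3a genes was closer between genotypes. It averaged 567 ± 22.5 CPM in heterozygotes with FK228 and 556 ± 29.9 CPM in wild type with FK228, and 477 ± 21.9 CPM in heterozygotes with solvent and 539 ± 47.4 CPM in wild type with solvent. Neither genotype difference passed an exact two-sided permutation test over 4 against 4 libraries, with p = 0.46 with FK228 and p = 0.086 in solvent (0.60 and 0.17 adjusted over 4 comparisons of this sum). The smallest p that design allows is 0.029, reached only by FK228 against solvent in heterozygotes, where it became 0.11 after adjustment. A single comparison with fully separated groups therefore could not pass after adjustment. These p-values do not show that the sums were equal between genotypes. Reads assigned to 1 copy instead of another, and a real difference in expression, cannot be told apart in these counts. Whether the difference stems from the Rest allele or from another difference between the mice was not tested.

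With FK228, the only other gene called between genotypes was Rpl10, so that 1 of 83 was higher in heterozygotes and 1 lower, against a background of 1.07% and 0.893% of all genes (edgeR); scaled to spike-ins, 0 were higher and 81 lower, against 0.526% and 73.8% of all genes. Rpl10 had 219, 244, 268 and 245 CPM in heterozygotes, against 202, 193, 183 and 200.3 CPM in wild type. The groups did not overlap, and the change was 0.33 ± 0.08 (edgeR, adjusted p = 0.032), or -0.41 when scaled to spike-ins. Rpl10 lies on the X chromosome and the pools differed in sex, with summed levels of 4 Y-linked genes of 78.7 to 213 CPM in heterozygotes with FK228 and 0 to 227 CPM in wild type with FK228; the call was lost with the sex mix as a covariate (log2 fold change 0.31, adjusted p = 0.065) and with a replicate block (0.40, adjusted p = 0.11), both by edgeR. The count of 1 became 0 without heterozygote FK228 replicate 3 or 5 or wild-type FK228 replicate 2, 4 or 7, 2 without wild-type FK228 replicate 1 or wild-type solvent replicate 3 or 4, 3 without heterozygote FK228 replicate 4 and 5 without wild-type solvent replicate 1. Over all genes, the share called higher in those fits was 0.501% to 1.1%. The count of lower calls was 2 without heterozygote FK228 replicate 2, or 2.38%, against 0.4985% of all genes.

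Other genes of ribosome production and translation were called in both directions, to be read against the background of 23.7% higher and 24.6% lower in heterozygotes and 23.6% and 25.2% in wild type. Of 77 mitochondrial ribosomal protein genes, 24 were higher and 24 lower with FK228 in Rest heterozygotes, and 23 and 20 in wild type, with median log2 fold changes of -0.05 in heterozygotes and -0.01 in wild type. Of 50 ribosome assembly factors, 15 were higher and 15 lower in heterozygotes and 14 and 15 in wild type. Utp4, of the small subunit processome, changed by 0.77 ± 0.08 and 0.77 ± 0.08 and Nop10, of the H/ACA particle, by 0.74 ± 0.09 and 0.68 ± 0.09, all called by edgeR (highest adjusted p = 3.2e-06). Of 18 subunits and factors of RNA polymerases I and III, 5 were higher and 5 lower in heterozygotes and 6 and 3 in wild type; Ubtf, which activates rDNA transcription, was lower, at -0.74 ± 0.08 and -0.71 ± 0.08 (edgeR, adjusted p = 2.5e-07 and 3.4e-07). These lists were also scaled to gene counts, and spike-in scaling lowers them in heterozygotes by the shift given above.

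Of 19 other TOP mRNAs, 8 were higher and 3 lower with FK228 in heterozygotes and 6 and 4 in wild type. Eef1d, a guanine exchange factor for elongation, changed by 0.82 ± 0.08 and 0.66 ± 0.08 (edgeR, adjusted p = 1.2e-07 and 2.1e-06), and Hnrnpa1 by -0.72 ± 0.09 and -0.51 ± 0.09 (edgeR, adjusted p = 2.2e-06 and 1.1e-04). Between genotypes with FK228, 2 of the 19 were higher in heterozygotes, against 1.07% of all genes. These were Eef2 at 0.58 ± 0.08 and Eif4b at 0.31 ± 0.07 (edgeR, adjusted p = 2.8e-04 and 0.028). Scaled to spike-ins, the median of all genes in this comparison was -0.74, a larger shift than either change. Rack1, which binds the small subunit, was higher with FK228 in both genotypes, at 0.36 ± 0.07 and 0.52 ± 0.07 (edgeR, adjusted p = 2.9e-04 and 5.4e-06), and the ubiquitin-like fusion Fau did not pass. Of 34 initiation factors, 5 were higher and 7 lower in heterozygotes and 8 and 9 in wild type; Eif4g2, which drives cap-independent initiation, was lower, at -1.22 ± 0.07 and -1.05 ± 0.07 (edgeR, adjusted p = 1.2e-10 and 7.5e-10). Of 27 regulators of mTOR and TOP mRNAs, 4 were higher and 11 lower in heterozygotes and 6 and 12 in wild type. Among them Myc, a driver of ribosome production, was lower, at -1.35 ± 0.13 and -1.66 ± 0.13, and Deptor, an inhibitor of mTOR, was higher, at 1.83 ± 0.14 and 1.71 ± 0.14, all called by edgeR (highest adjusted p = 7.6e-08). Of 11 genes of ribosomal stress and p53, 4 were higher and 3 lower in heterozygotes and 2 and 3 in wild type, and Trp53 itself was lower, at -0.72 ± 0.08 and -0.65 ± 0.08 (edgeR, adjusted p = 4.8e-07 and 1.5e-06).

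Of 55 tested pseudogenes named after ribosomal proteins, 6 were higher and 2 lower with FK228 in Rest heterozygotes and 8 and 0 in wild type, with medians of 0.18 and 0.14; the shares called were 14.5% in each genotype, against 48.3% and 48.7% of all genes. Between genotypes, 4 of 55 were higher in heterozygotes with FK228 and 3 of 55 with solvent, and 0 were lower in edgeR, against 1.07% and 1.06% of all genes higher. Reads of a processed pseudogene and of its parent are hard to separate, so these counts are not independent of those of the parents.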

How the data were processed

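The authors' deposited integer counts per gene came from reads aligned to GRCm38.p4 by STAR 2.5.2a, according to the submitters' processing notes, and were used summed over both strands. RNA had been amplified from oligo dT by template switching and tagmented per the labels' protocols, without strand. The deposited normalized table, a signal from DESeq2, equals the same counts divided by 1 factor per library; 100% of its values came back as whole reads within 0.01. edgeR 4.0.16 (R 4.3.3) fitted all 4 groups with TMM factors, filterByExpr (minimum count 10, total 15) and a robust quasi-likelihood F test on 17125 genes, with Benjamini-Hochberg adjustment at 0.05; SE is the log2 fold change over the root of F. The other 3 ribosomal protein genes fell below the filter. Some genes are counted but not reported by name here. CPM values use TMM library sizes. Alternatives used DESeq2 1.42.0, limma 3.58.1, other scalings, filters, covariates and each library left out. The edgeR test was also tried on counts simulated from these data, only for FK228 against solvent in heterozygotes. Lengths and 100-base windows came from GENCODE M21. Replicates of a group differed by 6.62 to 29.2 chi-square per degree of freedom, so none was a copy. The members, gene lists and named genes were chosen with earlier results of these data known. The named genes were Rest, the 6 higher and 6 lower calls per comparison with the smallest adjusted p, the 5 highest and 5 lowest levels, the P-stalk, Rpl5, Rpl11, Rps27a, Rps6, Rps3a1, Rpl13a, paralog pairs and up to 4 genes per other list. Genes with antisense or overlapping partners cannot be separated from them in unstranded counts. The precision of a level is limited by counting and by 4 pools per group.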

Additional observations from a re-analysis of the deposited data

Results flagged for a closer look

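A library far from the other 3 of its group was found in 9 of 176 groups of 4 examined, where chance flags about 1 in 20. Rest heterozygote solvent replicate 4 was the high library in 4 genes: Rpl3 at 1452 CPM, Rps16 at 287 CPM, Rps27a at 293 CPM and Rps6 at 526 CPM. The same library had the highest share of gene counts in ribosomal protein genes of its group, 2.23%, and one of the 2 lowest shares of reads outside genes. Single libraries also stood apart for Rps4l, at 40.4 CPM in heterozygote FK228 replicate 5, for Rps27rt, at 2.24 CPM in wild-type FK228 replicate 2, for Rpl38, at 69.4 CPM in wild-type solvent replicate 3, and for Rpl7, at 506 CPM in wild-type solvent replicate 1. The cause was not tested.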

How the results depend on the processing

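Of the 51 named calls, none changed direction outside spike-in scaling; DESeq2, RLE factors, TMM without these genes and mitochondrial genes, no filter and counts recovered from the normalized table kept all 51. Scaled to ERCC spike-ins, 16 turned round. In heterozygotes with FK228 these were Rpl11 at -0.32, Rpl17 at -0.36, Rpl22 at -0.38, Rpl4 at -0.53, Rpl7 at -0.48, Rpl7a at -0.44, Rpl7l1 at -0.50, Rpl8 at -0.25, Rpl9 at -0.52, Rplp0 at -0.44, Rps12 at -0.40, Rps16 at -0.42, Rps2 at -0.29, Rps24 at -0.23 and Rps3a1 at -0.45, and between genotypes with FK228 Rpl10 at -0.41. Spike-in scaling gave 0 higher and 79 lower for FK228 in heterozygotes, 1 and 7 in wild type, 0 higher between genotypes in solvent, 0 higher and 81 lower between genotypes with FK228 and 52 lower in the interaction. With a replicate block the calls were 3 lower for FK228 in heterozygotes, 15 higher in wild type, 0 higher between genotypes in solvent and 0 higher and 0 lower with FK228, and 32 of 51 named calls held. The matching shares of all genes were 22.05%, 18.9%, 0.625%, 0.42% and 0.228%. Same-numbered libraries correlated at -0.23 to 0.17 (17 pairs, 2 above 0.1). These correlations do not show pairing by number and cannot exclude it. With reads outside genes as a covariate there were 3 lower for FK228 in heterozygotes, 2 lower in wild type, 8 higher between genotypes in solvent and 11 higher with FK228. Shares of all genes were 24.5%, 24.9%, 1.39% and 1.59% in that order. Between genotypes in solvent, DESeq2 gave 11 higher and the fit of only the compared groups 12, against 1.86% and 1.01% of all genes. With FK228, DESeq2 gave 7 higher, a minimum count of 50 gave 6, only the compared groups 6, limma voom with quality weights 9 and a sex mix covariate 0. For these the shares of all genes were 1.93%, 1.315%, 1.245%, 1.33% and 0.888%. Without the 2 libraries with the fewest reads outside genes (chosen after the data were seen), there were 3 lower for FK228 in heterozygotes, 2 lower in wild type, 0 higher between genotypes in solvent and 6 higher with FK228. There the shares of all genes were 23.55%, 23.6%, 0.684% and 1.29%. Leaving out each library gave 24 to 36 higher and 2 to 5 lower for FK228 in heterozygotes, 16 to 37 and 1 to 6 in wild type, 0 to 12 higher and 1 to 1 lower between genotypes in solvent, 0 to 5 and 1 to 2 with FK228, and 0 in the interaction. Of all genes, 21.2% to 23.97% were then higher for FK228 in heterozygotes and 20.9% to 23.8% in wild type. Between genotypes, 0.645% to 1.19% were higher in solvent and 0.501% to 1.21% with FK228. The cause of the shifts in calls was not tested. The mean share of gene counts in these genes moved by less than 1 SD under both other denominators. Depth limits the lowest genes: Rps27rt, at 1.99 CPM, had SEs of 0.31 to 0.45.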
